A study of Mus musculus with 24 samples.

Results

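The locus described here is a block of CpG-dense sequence at the start of Sfi1 as GENCODE annotates it on mouse chromosome 11, which also lies within the outermost annotation of Drg1. Its members were chosen by position: every 100-bp window in the first 100 kb of assembled sequence of the chromosome (mm10) that any of 4 tables of differential 5-methylcytosine (5mC) signal listed. There were 11 such windows among 14618 distinct windows in the whole series, and 10 of them joined into one block of 1000 bp that ends at chr11 position 3193900, while the last, chr11:3199701-3199800, stood alone. Windows of the block are named here by the distance in bp of their centre from the outermost Sfi1 start of GENCODE at position 3193463, positive into the gene and negative upstream of that start, from +512 to -388. RefSeq places the outermost Sfi1 start at position 3203347, so in RefSeq the whole block lies within the gene. The tables listed 9, 6, 5 and 2 of the windows, for the comparisons of Pspc1 KO with WT, siNsun2 with siNC in Tet2-KO cells, Tet2 KO with WT, and siNsun2 with siNC in WT cells. Because a window entered a table only when its immunoprecipitated signal differed between the groups of that table, the 4 comparisons at these windows are described without a test.

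The libraries came from mouse embryonic stem (mES) cells, pluripotent cells of the early embryo kept in culture, and were made by MeDIP-seq, the sequencing of DNA fragments pulled down with a 5mC antibody (IP). The series comprised 24 libraries in 8 groups of 3. One experiment held IP libraries of WT and of Tet2-KO cells, both treated either with control siRNA, called siNC, or with siRNA that targets Nsun2, called siNsun2. The other held IP libraries and input libraries, sequenced without the antibody, of WT and of Pspc1-KO cells. All cells were grown with serum, LIF and the inhibitors CHIR99021 and PD0325901, and whether each KO line is 1 clone is not given in the sources used here. The study calls its genome-wide data biological replicates, and the labels do not say whether the libraries of a group came from separate cultures, so p-values measure the spread between these libraries, which may be technical. IP libraries held 8.92 to 15.4 M reads in the siRNA experiment and 20.4 to 39.8 M in the Pspc1 experiment, and input libraries held 10.5 to 14.8 M. In all, 5 listed windows within Tet2 held 0 reads in each Tet2-KO siNC library and 62, 83 and 78 reads in the WT siNC libraries. They were listed for that difference, and with no input analysed for these cells, lost DNA and lost 5mC cannot be told apart. No window at this locus bears on the knockdown of Nsun2 or the loss of Pspc1.

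DNA methylation in mammals falls mostly on cytosines of CpG sites. CpG-dense stretches at gene starts, called CpG islands, are usually unmethylated, and methylation of such a start typically goes with a silent promoter. TET2 oxidizes 5mC. Its partner PSPC1 is a paraspeckle protein that binds RNA, and NSUN2 installs m5C on RNA. Sfi1 encodes a centrin-binding protein of the centrosome, and Drg1 encodes a GTPase that associates with translating ribosomes.

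The block surrounds the GENCODE start of Sfi1 on the minus strand. In GENCODE the first exon, a 5′ untranslated exon, spans chr11:3193360-3193463. The +112 and +12 windows overlapped that exon, and the 4 windows from +512 to +212 lay in the intron that follows it. The windows from -88 to -388 lay upstream of that start and each overlapped an exon of Gm12735, an annotated noncoding RNA on the same strand, and in RefSeq each overlapped an exon of Sfi1. Drg1 reached the block through 1 transcript, a nonsense-mediated decay form, of which every window here was intronic. RefSeq annotates no part of Drg1 within the 100 kb, so the assignment to Drg1, like the place of the Sfi1 start, depends on the annotation. The sequence of the core, the +512, +412 and +312 windows on which the rule centres, is shown first from its first to its last CpG site, because +412 and +312 carried opposite changes in different comparisons. The part of the -288 window outside RefSeq exons, with the single CpG site of that window, and the separate window follow for contrast. All are RefSeq sequence of the plus strand of mm10, and capitals mark CpG sites.
chr11:3192902-3193188: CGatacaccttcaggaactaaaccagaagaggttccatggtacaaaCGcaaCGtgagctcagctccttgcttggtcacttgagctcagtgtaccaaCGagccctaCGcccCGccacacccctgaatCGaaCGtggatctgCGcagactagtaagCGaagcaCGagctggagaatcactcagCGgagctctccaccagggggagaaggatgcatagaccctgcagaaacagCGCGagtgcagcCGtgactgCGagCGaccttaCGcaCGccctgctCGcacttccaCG
chr11:3193715-3193800: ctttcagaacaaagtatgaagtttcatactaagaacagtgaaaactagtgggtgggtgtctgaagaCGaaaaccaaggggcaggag
chr11:3199701-3199800: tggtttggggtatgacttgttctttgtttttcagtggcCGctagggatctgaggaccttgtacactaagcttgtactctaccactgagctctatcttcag

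The block was CpG-dense in the reference. It held 63 CpG sites in 1000 bp, or 6.3 per 100 bp, against 1.2 and 0.7 per 100 bp in the 1000 bp before and after it and 1.109 per 100 bp over the 100 kb. Its GC content was 55.7%, and the ratio of observed to expected CpG was 0.816, against 0.217 over the 100 kb. The CpG count of a window ranged from 1 at -288 to 12 at +12, and the core held 21. Only 3 of its 1000 bases were soft-masked as repeat in the reference, compared with 39.9% of the 100 kb. A search of the whole assembly at 80% identity or more returned the block itself and 0 other matches. The reference sequence therefore did not bear out the working description of this locus as repeat-like. The assembled sequence of the chromosome follows 3100000 unknown bases, which places the block 92900 bp from the edge of the gap.

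The DNA of the block was deep in the input libraries. Mean WT input signal, in RPKM, the reads of a window scaled to its length and to the total reads of the library, ran from 14.2 ± 3.83 (SD, n = 3) at +512 to 56.9 ± 8.29 at -288. The lower quartile over the 298 other windows of the Pspc1 table was 0.822 RPKM and the median 2.43 RPKM, so the 9 listed windows of the block held 17.3 to 69.2 times the lower quartile and 5.86 to 23.4 times the median. Those other windows were themselves listed, so they are not a genome baseline. A genome covered evenly, with each read counted in 1 window, would give 0.367 RPKM. WT input at the 9 listed windows of the block was 38.7 to 155 times that even level. Longer counted reads would raise the even level, and their length is not given in the sources used here. Deep input was also present elsewhere, since 133 of the 298 other windows exceeded 10 times that even level in WT. How many copies of the block these cells carry was not tested.

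Input was compared between Pspc1-KO and WT cells because the windows had been listed on IP signal alone. Averaged over the 9 windows, the Pspc1-KO input libraries measured 43.4, 40.6 and 38.6 RPKM and the WT input libraries 39.3, 39.9 and 36.1 RPKM. The groups overlapped, and the exact two-sided permutation test gave p = 0.30, where 3 against 3 libraries cannot go below 0.10. By edgeR's quasi-likelihood test with Benjamini-Hochberg adjustment over the 307 windows of the table, 0 of the 9 windows passed an adjusted p of 0.05, and 0 passed an unadjusted p of 0.05, with DESeq2 also at 0 and 0. Of all windows in the table, 3.26% passed. The fitted log2 differences, KO over WT, ran from -0.10 to 0.40 with a median of 0.14, and adjusted p-values ran from 0.67 to 0.98. Any pair of a KO and a WT library differed by between -0.05 and 0.27 on the log2 scale in mean input of the block. Each window rested on 16 to 88 reads per input library, and neighbouring windows share fragments, so small differences were not detectable at this depth.

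IP signal exceeded input at every listed window of the block. In WT cells the IP signal was 8.85 ± 0.16 (SD, n = 2) times the mean input at -288, 27.6 ± 1.18 times at +512 and 49.8 ± 0.54 times at +312, and at +412 the 3 libraries gave 58.0, 59.1 and 61.7 times. In Pspc1-KO cells the same windows gave 7.26 ± 0.23, 16.4 ± 0.85, 38.2 ± 0.21 and 43.4 ± 0.73 times (n = 3). The window at +412, in the Sfi1 intron, had the highest ratio and the CpG-poor window at -288 the lowest in both genotypes. By edgeR's quasi-likelihood test 9 of 9 windows were higher in IP in WT, where 96.4% of the table's windows were, and 9 of 9 in Pspc1 KO, where 87.9% were, so the count itself did not set the block apart. All windows of the table were listed on these same IP libraries, so the counts describe listed windows only and no p is given. When TMM factors computed over the listed windows were added, the median over all windows in WT moved from 5.22 to 0.78 on the log2 scale and 6 of 9 windows were higher in IP in each genotype, while 2 were lower in WT and 1 in Pspc1 KO, with lowest log2 ratios of -1.32 and -1.19. Of all 307 windows, 145 were then higher in WT and 141 in Pspc1 KO.

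Across the 9 windows the ratio of IP to input followed the CpG count in part, with Pearson's r of 0.68 in WT and 0.69 in Pspc1 KO between CpG count and log2 ratio. The windows are neighbours that share fragments, so these values only describe them. The window with the most CpG sites, +12 at 12 sites, had a WT ratio of 39.4, below 60.1 at the 8 sites of +412. Of the other 10-kb stretches that held at least 10 such deep windows, 56 windows of chr17:39840001-39850000 had ratios of 0.813 to 3.57, 12 of chr4:118540001-118550000 had 26.2 to 41.9 and 12 of chr8:123420001-123430000 had 13.5 to 83.9, against 8.81 to 59.6 here when all 3 WT IP libraries were used.

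**Figure D1:**
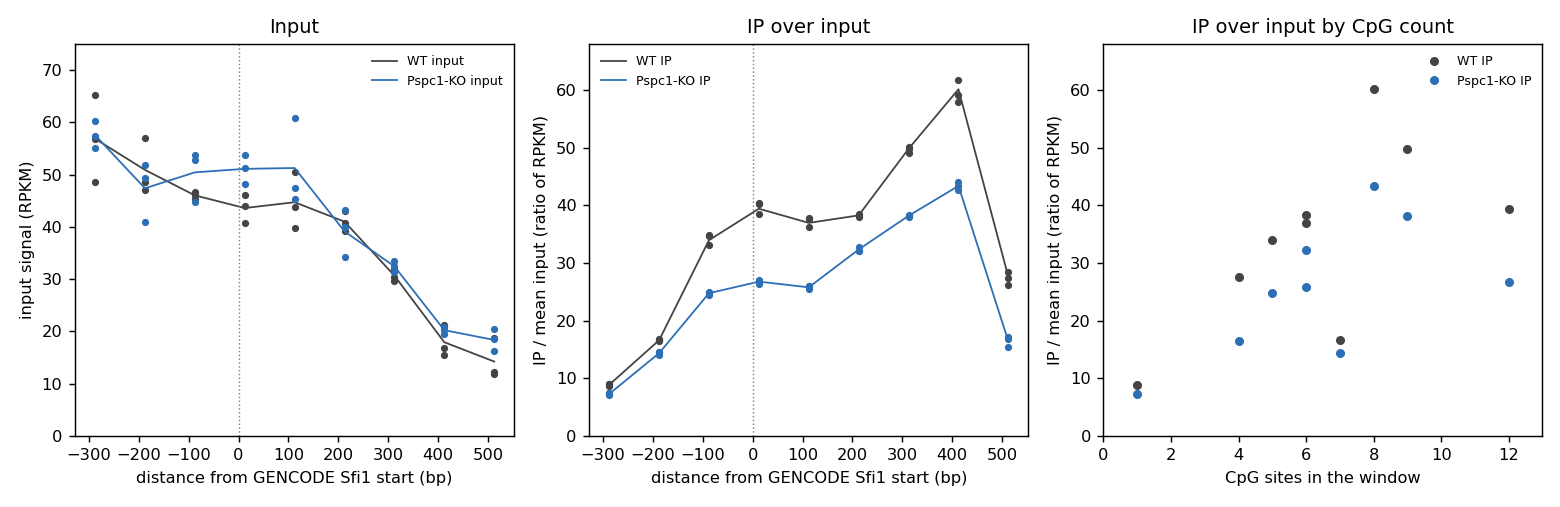
Input RPKM (left) and the ratio of IP to mean input RPKM (middle) against the distance of the window centre from the GENCODE Sfi1 start in bp (positive into the gene), and the ratio against CpG sites per window (right), for WT (black) and Pspc1 KO (blue). Points in the left and middle panels are libraries and lines join means; the input groups overlap at most windows, while the ratio peaks at 60.1 in WT and 43.4 in Pspc1 KO.

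IP signal was lower in Pspc1 KO across the block in the deposited RPKM. All 9 windows from +512 to -288 were listed as lower, where 0.00463% of the windows tested were. At +412 the Pspc1-KO libraries measured 877, 891 and 862 RPKM and the WT libraries 1039, 1058 and 1106. At +312 they measured 1239, 1245 and 1231 against 1505, 1525 and 1539 RPKM, and at +512 they measured 307, 313 and 283 against 371, 389 and 404 RPKM. Each KO library lay below each WT library at 9 of 9 windows, as at 240 of the other 240 windows listed as lower, so the separation came with the listing. In each of the other tables, too, 100.0% of the windows listed outside the locus had groups that did not overlap. The log2 ratio of KO to WT, computed on RPKM + 0.1, ran from -0.38 at +512 to -0.27 at -288 with a median of -0.31, which is a narrow range for windows whose level differed from 392 to 1718 RPKM in WT. The direction of the core mean depended on scaling to the library. With counts scaled to the sum of the windows of the table, of which 249 of 307 were lower in KO, it turned from -0.33 to 0.045. In the deposited RPKM the ratio of IP to input was also lower in KO, by between -0.75 and -0.21 on the log2 scale. Mean input was higher in KO at 7 of 9 windows, none past the test given above.

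Tet2 KO, by contrast, went with higher IP signal at the block. The table listed 5 windows, +112, +12, -188, -288 and -388, which overlap the untranslated first exon of GENCODE or lie upstream of it, without the -88 window next to that exon, and all 5 were higher in Tet2 KO, where 0.0568% of the windows tested were. At +12 the Tet2-KO siNC libraries measured 1134, 1066 and 1041 RPKM and the WT siNC libraries 952, 853 and 873. The upstream window -388 measured 382, 414 and 404 against 319, 330 and 307 RPKM. The groups did not overlap at any of the 5 windows, and the log2 ratio ran from 0.23 to 0.31. These changes were small beside the other 2409 windows listed as higher, whose median log2 ratio was 2.25 at a median level of 17.2 RPKM. At 2 core windows that this comparison did not list, the same libraries, read from the siNsun2 tables, gave log2 ratios of 0.21 at +412 and 0.18 at +312. Both windows have values only because the siNsun2 tables listed them, as higher than WT siNC and as lower than Tet2-KO siNC, a choice that itself favours a higher Tet2-KO siNC level, so these ratios add no support.

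The siNsun2 response went opposite ways in the WT and Tet2-KO cells. In WT cells siNsun2 went with higher signal at +412 and +312, both in an intron of Sfi1, where 0.000747% of the windows tested were listed as higher. At +412 the WT siNsun2 libraries measured 698, 643 and 650 RPKM and the WT siNC libraries 518, 478 and 466. At +312 they measured 968, 861 and 897 against 741, 646 and 655 RPKM. The log2 ratios were 0.44 and 0.41, and no library of one group reached the other. They were the only windows of chromosome 11 in a table of 31, whose other 29 windows had log2 ratios of 0.10 to 0.29 at a median level of 2425 RPKM.

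In Tet2-KO cells siNsun2 went with lower signal at +512, +412, +312, +12 and -88, where 0.00378% of the windows tested were listed as lower. At +412 the Tet2-KO siNsun2 libraries measured 370, 374 and 329 RPKM and the Tet2-KO siNC libraries 576, 569 and 564. At +312 they measured 567, 514 and 486 against 808, 761 and 783 RPKM. At +512 they measured 182, 182 and 169 against 273, 267 and 257 RPKM. The groups did not overlap at any of the 5 windows, and the log2 ratio ran from -0.68 at +412 to -0.51 at -88, with a median of -0.59. With counts scaled to the sum of the windows of the table, the mean of the core moved from -0.62 to -0.20. The siNsun2 and siNC libraries of Tet2-KO cells had no input analysed here, so a difference in the amount of the DNA itself was not tested in the siRNA experiment.

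The separate window at chr11:3199701-3199800, which lies in an intron of Drg1 in GENCODE and of Sfi1 in RefSeq and holds 1 CpG site, went the other way in Tet2-KO cells. The siNsun2 libraries measured 94.5, 87.1 and 105 RPKM and the siNC libraries 51.6, 61.1 and 60.0, a log2 ratio of 0.77. The groups did not overlap, and 0.00181% of the windows tested were listed as higher. Its sequence had 46 of 100 bases soft-masked, and the search found 0 other matches in the assembly.

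**Figure D2:**
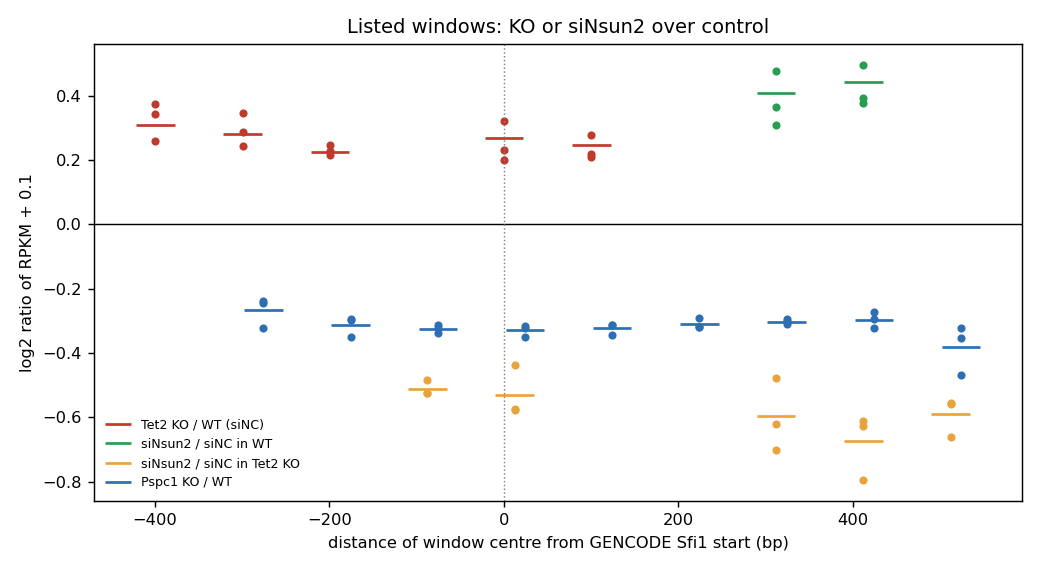
Log2 ratio of RPKM + 0.1 (KO or siNsun2 over its control) at the listed windows of the block, against the distance of the window centre from the GENCODE Sfi1 start in bp, with points for the 3 KO or siNsun2 libraries over the control mean, bars for group ratios and small sideways shifts for legibility. Tet2 KO and siNsun2 in WT lie above 0, and siNsun2 in Tet2 KO and Pspc1 KO lie below it. The mean Pspc1 response of the core turns when counts are scaled to the sum of the listed windows, a scaling not run for the rest of the block.

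The levels at the core fell in 1 order at both windows that all groups share. At +412 the mean IP signal was 1077 ± 40.4 RPKM (SD, n = 2) in WT of the Pspc1 experiment, 877 ± 14.7 (n = 3) in Pspc1 KO, 672 ± 36.6 (n = 2) in WT siNsun2, 571 ± 6.75 (n = 2) in Tet2-KO siNC, 495 ± 32.6 (n = 2) in WT siNC and 358 ± 24.8 (n = 3) in Tet2-KO siNsun2. No neighbours in this order overlapped in their library values, at +412 or at +312. Where n is 2, a pair of libraries differed by less than the sampling noise, while another pair of the group differed by more, and was counted as 1 sample. In Tet2-KO siNsun2 all 3 pairs, and in Pspc1-KO IP 1 pair, also lay under the sampling noise, and since no pair of these groups clearly exceeded it they were kept as n = 3. Tet2-KO siNsun2 cells lay below WT siNC at +412, +312 and +12, by -0.47, -0.41 and -0.26 on the log2 scale, and below WT siNsun2 by -0.91 and -0.82 at the core windows measured in both. The order sets the groups of 2 experiments side by side, rests on windows listed for differing between groups and carries no test. The Tet2-KO and siNsun2 comparisons share the siNC libraries, so a low or high siNC library moves more than one of them.

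**Figure D3:**
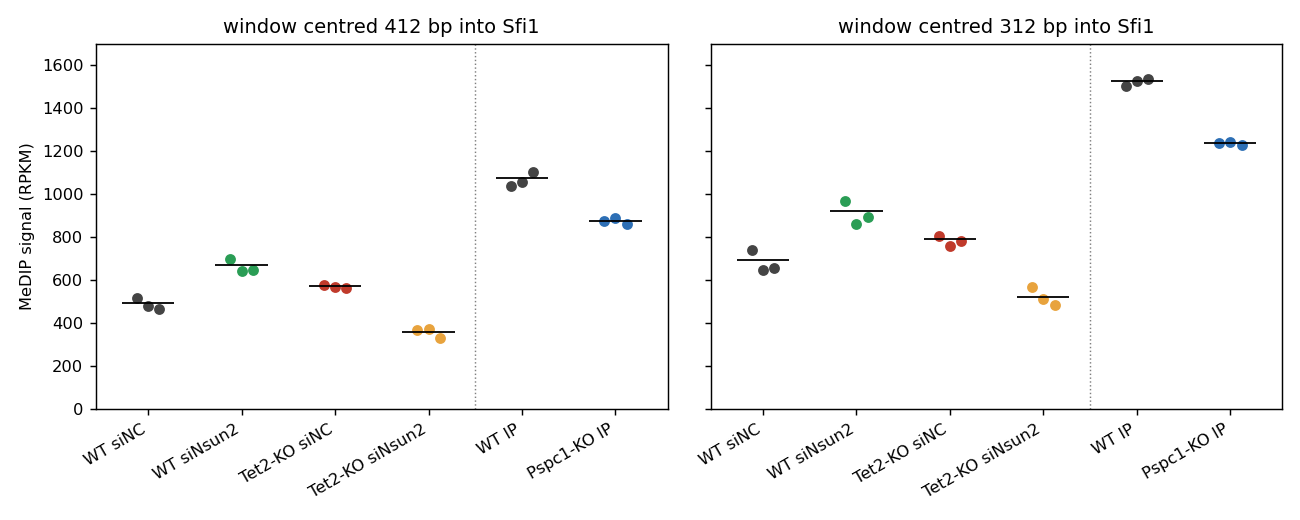
IP signal in RPKM of each library (points) and the group mean (bar, agreeing pairs averaged) at the core windows centred 412 and 312 bp into Sfi1, for the 4 groups of the siRNA experiment and the WT and Pspc1-KO groups, separated by a dotted line. The 6 groups do not overlap at either window; WT of the Pspc1 experiment lies above every group of the siRNA experiment.

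At the core, WT cells of the 2 experiments differed more than any group did from its control. WT IP signal in the Pspc1 experiment was 2.18 and 2.20 times that of WT siNC at +412 and +312, 1.89 times at +12 and 1.06 times at -288, so the ratio declined from the intron toward the upstream side. The largest change between a group and its control in the block was 1.60-fold, for siNC over siNsun2 in Tet2-KO cells at +412. The 2 experiments differ in transfection and in depth, and these cannot be told apart here. The order of levels given above crosses the 2 experiments, while the responses to KO and siNsun2 compare libraries within one. In all groups with values there, signal peaked at +12, over the GENCODE start, and fell to both sides, from 1718 to 392 RPKM in WT of the Pspc1 experiment.

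**Figure D4:**
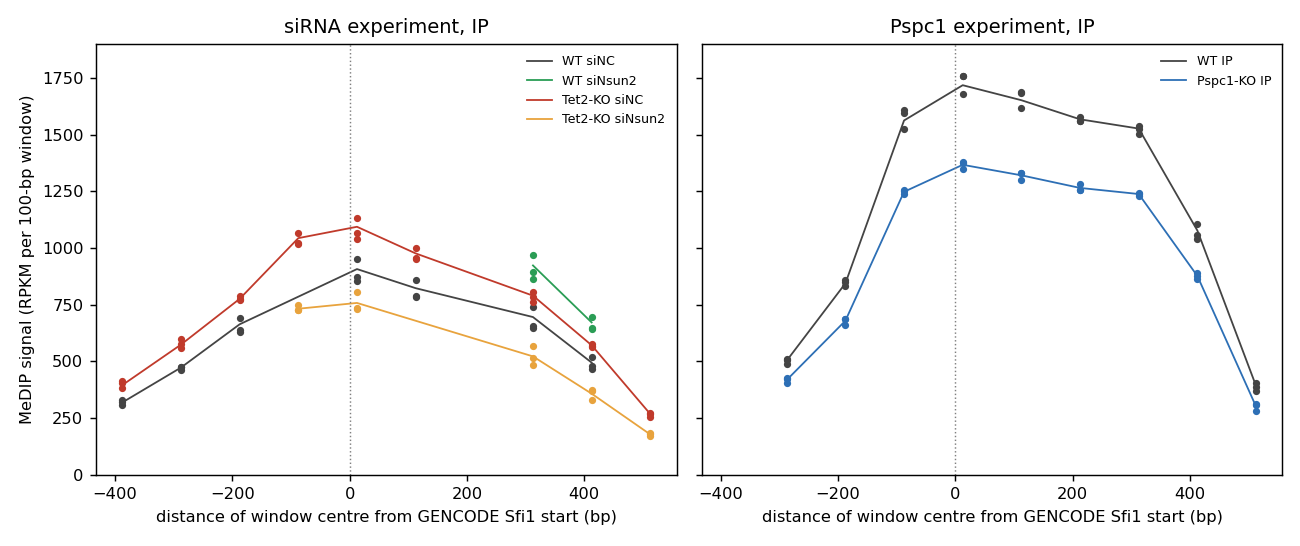
IP signal (RPKM per 100-bp window) along the block against the distance of the window centre from the GENCODE Sfi1 start in bp, with points for libraries and lines joining group means over the windows listed for that group, in the siRNA experiment (left) and the Pspc1 experiment (right). Each profile with a value at that start peaks there, at 1718 RPKM in WT and 1367 in Pspc1 KO on the right and at 1094 in Tet2-KO siNC and 907 in WT siNC on the left.

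The locus recurred across the tables. Of 14618 distinct windows, 14379 were in 1 table, 235 in 2 and 4 in 3, with 0 in all 4. Of those 4, the windows at +412, +312 and +12 belonged to this block and the other was chr6:145004501. The 2 windows listed for siNsun2 in both WT and Tet2-KO cells were +412 and +312, and no window elsewhere shared both lists. The comparisons share siNC libraries and the members were selected on these tables, so this recurrence is a description.

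The relative methylation score of MEDIPS, which lies between 0 and 1 and takes CpG density into account, had means that went the same way as RPKM at the core, by little. At +412 the mean score was 0.66 in WT siNsun2 and 0.64 in WT siNC, 0.63 in Tet2-KO siNsun2 and 0.65 in Tet2-KO siNC, and 0.71 in Pspc1 KO and 0.75 in WT. The WT libraries scored 0.72, 0.72 and 0.77, with the highest in replicate 3, and the Pspc1-KO libraries 0.71, 0.72 and 0.71, so that the WT mean rested on 1 library. The scores of Tet2-KO siNsun2 ran from 0.62 to 0.64 and those of its siNC control from 0.63 to 0.66. In each of the 4 comparisons the score ranges of the groups met or overlapped at +412, where those of RPKM did not. Outside the core, with agreeing pairs averaged, the mean score at -288 was 0.835 in Tet2-KO siNC and 0.8375 in WT siNC, against the direction of RPKM. The libraries there scored 0.82, 0.85 and 0.85 against 0.83, 0.84 and 0.85, so that direction rested on the averaging. At -188 the mean so averaged was 0.68 in both, from 0.66, 0.70 and 0.70 against 0.68, 0.67 and 0.69.

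No gene other than Sfi1 and Drg1 held a listed window in the centrosome and DRG lists used here. In each table, 1 of 19 centrosome and centriole genes, which was Sfi1, and 1 of 5 DRG GTPases and partners, which was Drg1, held a listed window. Cetn2 and Cetn3, the centrins that proteins of the Sfi1 kind bind, Plk4, the kinase that starts centriole duplication, and Zc3h15, a binding partner of DRG1, held none. For scale, 48 of 22028 protein-coding genes held a listed window in the Pspc1 table, 58 in the table of siNsun2 in Tet2-KO cells, 911 in the Tet2 table and 9 in that of siNsun2 in WT cells. At such shares, the absence of so few other genes does not set them apart. Sfi1 and Drg1 were in the lists because they hold the chosen locus. Of 7 genes annotated in the 100 kb, Sfi1, Drg1 and Gm12735 held listed windows and the pseudogenes Pisd-ps1, Gm11400 and Fau-ps2 and the antisense gene Gm11399 held none. The next listed window of chromosome 11 beyond the 100 kb started at 3788001 in the Tet2 table, 5935701 in that of siNsun2 in Tet2-KO cells and 17208401 in the Pspc1 table.

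Over the 12 libraries of the Pspc1 table, the windows whose log2 RPKM ran most like the core were chr13:119601501-119601600 and chr13:119601301-119601400 in Tmem267, chr15:99380701-99380800, and 2 windows of the unplaced contig JH584304. Pearson's r was 0.998 to 0.999 among 298 windows ranked, and it is given without a p because the 6 IP libraries differ so far from the 6 input libraries. At chr13:119601501 the mean IP signal was 315 RPKM in WT and 246 in Pspc1 KO over a WT input of 18.5, levels near those of the window at +512. At chr15:99380701 it was 52.0 RPKM in WT and 30.4 in Pspc1 KO over a WT input of 0, so a high r did not require a like level. No window outside the locus was in both siNsun2 tables, so likeness over the siRNA libraries could not be ranked.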

How the data were processed

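All 24 libraries were used. According to the methods and labels, the authors trimmed reads (Trimmomatic 0.39), aligned them to mm10 (Bowtie2 2.4.1), removed duplicates (Picard) and compared groups in 100-bp windows with MEDIPS and edgeR, at an adjusted p under 0.1 by Bonferroni. The deposited tables hold only windows past that limit, with read counts per window, RPKM computed by the authors from each library total, and the relative methylation score, a fraction. The deposited p-value columns and fold changes are the authors' own comparison and gave here only the number of windows tested. The deposited CpG coupling factor equalled the CpG count of the reference window at all 11 windows.

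Listed windows of chr11:3100001-3200000 were the members. The +512 window is chr11:3192901-3193000, and each next window of the block starts 100 bp on, to chr11:3193801-3193900 for -388; the core is chr11:3192901-3193200. Library totals were recovered from count over RPKM. Input, and IP against input, were tested with edgeR 4.0.16 (quasi-likelihood, recovered totals as library sizes, Benjamini-Hochberg over 307 windows, 0.05), with DESeq2 1.42.0, TMM, a filter of 10 input reads, a replicate block and left-out replicates as alternatives. The scripts were tested on simulated data. Log2 ratios used group means of RPKM + 0.1. Replicate pairs at or under a chi-square of 1 per degree of freedom, in windows of at least 20 reads, while another pair of the group exceeded 1.2, were averaged. This merged 2 and 3 of WT siNC, WT siNsun2 and Tet2-KO siNC, and 1 and 2 of WT IP. Annotation was GENCODE vM21 and RefSeq on GRCm38, the same build. Sequence was taken from that RefSeq assembly and searched with BLAST 2.17.0 (megablast), which can miss short or diverged copies. Members, gene lists and tests were chosen with earlier results of these data known. Named were Sfi1, Drg1, every listed window of the 100 kb, and the 5 windows most like the core. Values after ± are SDs between libraries, with agreeing pairs averaged.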

Additional observations from a re-analysis of the deposited data

Results flagged for a closer look

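The siNsun2 response at the core windows differed in direction between WT and Tet2-KO cells. At the window centred 412 bp into Sfi1 (+412) the log2 response in WT exceeded that in Tet2 KO by 1.12, and at +312 by 1.01. With counts scaled to the sum of the windows of each table these differences were 0.55 and 0.44. Every siNsun2 library lay above the siNC mean in WT and below it in Tet2-KO cells. The difference was not tested, since both tables listed these windows for the contrasts being compared. Groups held 3 libraries, too few to test for an outlying sample.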

How the results depend on the processing

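Of 74 alternative values, 1 reversed and 7 moved, all given here. Of the rest, 12 could not differ from the main value by construction (RPKM recomputed from totals that came from RPKM, input with no averaged pair, and unchanged sets of windows) and 4 were on the score, another scale. Scaling counts to the sum of the windows of the table turned the mean core response to Pspc1 KO from -0.33 to 0.045 and moved those of Tet2 KO from 0.20 to 0.28, of siNsun2 in WT from 0.42 to 0.28, and of siNsun2 in Tet2 KO from -0.62 to -0.20. By construction that sum is made of the windows that themselves moved. The core means of Tet2 KO and of siNsun2 in WT cover 2 core windows, and the other core means cover all 3. The Tet2 comparison did not list its 2 windows. They have values only because the siNsun2 tables listed them, a choice that favours a higher Tet2-KO siNC level. The core values of Tet2 KO, also those with a replicate left out, therefore add no support for a response to Tet2 KO there. With TMM factors 6 of 9 windows, not 9, were higher in IP than in input, in WT and in Pspc1 KO, and 2 and 1 were lower, while 145 and 141 of all 307 windows were higher. Leaving out a replicate gave core responses of 0.19 to 0.26 for Tet2 KO (0.26 without replicate 1), 0.41 to 0.44 for siNsun2 in WT, -0.63 to -0.58 for siNsun2 in Tet2 KO and -0.34 to -0.28 for Pspc1 KO (-0.28 without replicate 3). Input differences stayed at 0 called windows under every alternative run, with 1 window at an unadjusted p under 0.05 without replicate 2. With the replicate block 0 of 9 windows differed in input and 9 of 9 exceeded input in both genotypes; over the table, input calls went from 10 to 5, and the filter on 10 input reads left 193 windows. Deviations of same-numbered input libraries correlated at -0.32, -0.45 and 0.02, so the numbers were not taken as pairs. Over the table, DESeq2 called 0 windows in input, and 0 to 5 were called when a replicate was left out. Mean scores went in the direction of RPKM at the core, and not at every listed window outside it. Windows past the authors' limit alone could be analysed, and input depth limits the copy comparison.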
